A study of Musca domestica with 24 samples.

Results

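The effect of developmental temperature on gene expression was examined in testes of the house fly, Musca domestica, of the strain CSrab. The comparison set 3 libraries from flies raised at 29 °C against 3 libraries from flies raised at 18 °C, which are 6 of the 24 libraries of the series. They were chosen by strain, tissue and temperature as the labels give them, and no measured value entered the choice. The other 18 libraries were testes of the strain IsoCS and heads of both strains, again with 3 biological replicates at each temperature. Testes of IsoCS and heads of CSrab serve below as points of comparison. By the series' design the strains share an isogenic background and differ in the proto-Y chromosome they carry. The labels do not give the age of the flies, the number of flies pooled in a library, or which proto-Y each strain carries.

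The adult fly testis is a tube filled largely with germ cells at successive stages of spermatogenesis, enclosed by a somatic sheath. Many genes transcribed in male germ cells are expressed almost nowhere else, so the testis has one of the most distinctive transcriptomes of the body. In the house fly, maleness is set by a male-determining gene carried on a proto-Y, a young Y chromosome that has diverged little from its partner. Different proto-Y chromosomes occur at different frequencies in warm and cool parts of the species' range, which is the setting for raising the 2 strains at the 2 temperatures.

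Expression was measured by sequencing polyadenylated RNA in strand-specific libraries, and the authors deposited raw read counts per gene. Total counts were 15.7, 14.9 and 19.96 M reads in replicates 1, 2 and 3 of CSrab testis at 18 °C, and 29.0, 21.2 and 31.7 M at 29 °C. The number of genes detected, with 1 count or more, ran from 14540 to 14906 per library. Levels are given below as CPM, the read count of a gene relative to its library's total after TMM scaling, without correction for transcript length. On log2(CPM + 1), libraries of the same temperature correlated at 0.949 to 0.989 (6 pairs) and libraries of different temperatures at 0.947 to 0.970 (9 pairs), so that the ranges overlapped. Replicate 3 at 29 °C stood apart, with the lowest TMM factor, 0.747 against 0.968 to 1.14 in the other 5 libraries. The labelled tissue could not be checked against marker genes, since the deposited tables pair few identifiers with names: the 8 marker lists, written as product names, matched 0 symbols. Without names, 1038 of the 13271 tested genes had a mean of at least 5 CPM in CSrab testes and under 0.5 CPM in CSrab heads. They set the libraries apart from heads, but cannot show that the tissue is testis. These genes are called testis-limited below, against heads alone, since no other body tissue was measured.

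Of the 13271 genes tested, 893 differed between 29 °C and 18 °C in CSrab testes at an adjusted p under 0.05 by edgeR's quasi-likelihood test, or 6.73% (called genes). The split was close to even, with 428 genes higher at 29 °C (3.23%) and 465 lower (3.5%). The median log2 change was 1.20 among the higher genes and −1.16 among the lower ones, against 0.02 over all tested genes. A log2 change above 2 in size, which is over 4-fold, was found in 100 of the higher and 100 of the lower genes. In bulk testis, fewer cells of a type and less RNA per cell cannot be told apart, and this holds for each change given below. The 3 libraries of one temperature lay wholly above those of the other in 891 of the 893 called genes and in 32.9% of all tested genes. At an unadjusted p under 0.05 there were 2955 genes. The count of called genes depended on each of the 6 libraries: it was 276 without replicate 2 at 18 °C and 786 without replicate 3 at 29 °C. The main fit also took in the IsoCS testis libraries, which share in the estimate of spread. With only the 6 CSrab libraries fitted, 1012 genes were called, 703 of them among the 893. Replicate number was not part of the main fit. With it as a block, 744 genes were called, 604 of them among the 893.

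**Figure D1:**
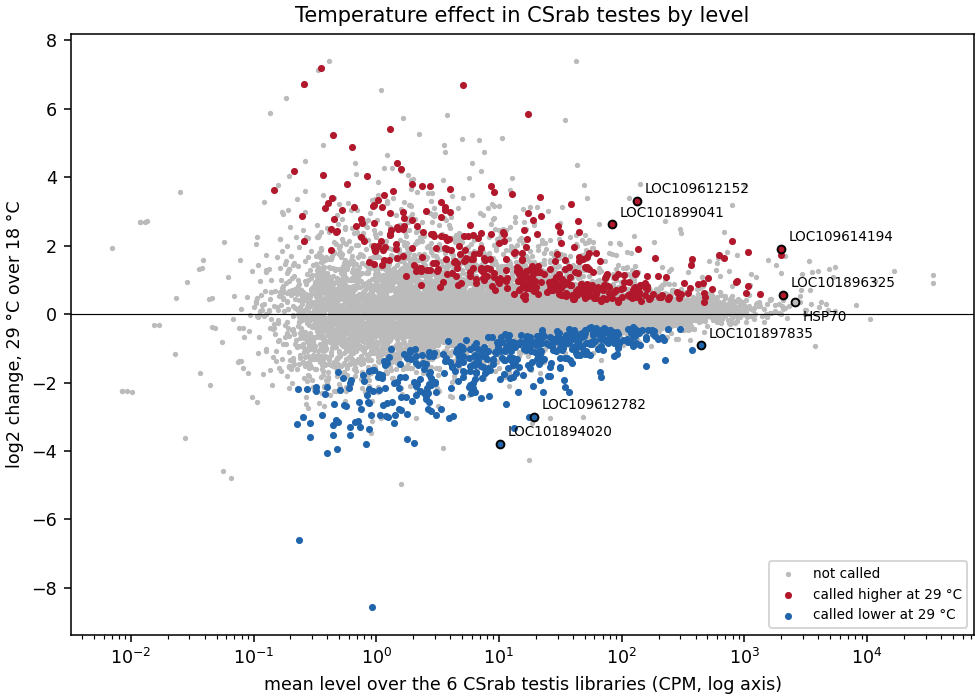
Log2 change between 29 °C and 18 °C (y axis) against the mean level over the 6 CSrab testis libraries in CPM (x axis, log scale), 1 point per tested gene, with called genes in colour. Called genes lay on both sides of 0 from under 1 CPM to over 100 CPM. Above 1000 CPM 7 of 92 tested genes were called, all higher at 29 °C. Over all tested genes 3.23% were called higher and 3.5% lower.

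The 8 largest rises were taken among called genes with a mean of at least 5 CPM at 29 °C and no overlap between the libraries, since larger estimates lower down rest on few counts. Of these, 7 had a level under 4 CPM in each library at 18 °C. LOC109612097, on chromosome element D, was at 0.279, 0.548 and 0.303 CPM in the 3 libraries at 18 °C and at 6.63, 3.59 and 5.02 CPM at 29 °C. Its log2 change was 3.75 ± 0.414 (SE, n = 3 and 3, edgeR adjusted p 0.00172), or 13.4-fold. LOC109612418 rose from 0.782, 0.670 and 0.303 CPM to 8.20, 6.90 and 6.96 CPM, a log2 change of 3.65 ± 0.383 (edgeR adjusted p 0.00131). In both genes the libraries of a temperature lay close together and far from those of the other temperature. LOC109613328 rose from 1.56, 0.487 and 1.52 CPM to 21.2, 18.9 and 8.06 CPM (log2 change 3.74 ± 0.547, edgeR adjusted p 0.00502). LOC101894906, a testis-limited gene on element C, rose from 1.62, 2.56 and 1.92 CPM to 29.6, 19.5 and 21.1 CPM (log2 change 3.52 ± 0.625, edgeR adjusted p 0.00983).

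Other large rises were uneven among the 29 °C libraries. LOC101897230 (element D) went from 1.90, 1.34 and 1.01 CPM to 27.3, 17.0 and 5.95 CPM (log2 change 3.56 ± 0.558, edgeR adjusted p 0.00605). LOC101899162 (element C) went from 3.57, 3.59 and 3.84 CPM to 22.3, 18.7 and 77.8 CPM (log2 change 3.43 ± 0.533, edgeR adjusted p 0.00605). Replicate 3 at 29 °C was thus the lowest of its group in the first gene and the highest in the second. LOC101888872 (element C) showed the widest spread of this set, from 0.614, 0.609 and 0.657 CPM to 10.9, 6.58 and 1.01 CPM. Its log2 change of 3.29 ± 0.672 (edgeR adjusted p 0.0179) was no longer called with replicate number as a block (2.82, edgeR adjusted p 0.0606), nor without any 1 of 4 libraries, replicates 1, 2 and 3 at 18 °C or replicate 1 at 29 °C (adjusted p 0.0638 to 0.0845). LOC109612152 had the highest level of the 8 largest rises, at 15.2, 18.0 and 39.3 CPM at 18 °C and 218, 124 and 382 CPM at 29 °C. It rose by a log2 change of 3.32 ± 0.601 (edgeR adjusted p 0.0109), with an adjusted p of 0.0621 without replicate 2 at 18 °C.

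The best-supported rises, by p-value, were more moderate. Choosing the smallest p-values among genes without overlap favours genes that are even among libraries. LOC101897909, a testis-limited gene on element C, was at 16.5, 17.2 and 17.9 CPM at 18 °C and at 54.1, 52.0 and 50.1 CPM at 29 °C. Its log2 change was 1.60 ± 0.125 (edgeR adjusted p 0.000337). LOC101893409 (element B) rose from 11.3, 14.1 and 17.6 CPM to 89.0, 65.1 and 74.0 CPM, a log2 change of 2.40 ± 0.188 with the same adjusted p. LOC101899041, on a scaffold with no assigned element, rose from 24.1, 26.7 and 19.2 CPM to 166, 149 and 117 CPM, a log2 change of 2.62 ± 0.206, again with the same adjusted p. In these 3 genes the gap between the temperatures was far wider than the range within either one, as that choice favours.

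The 8 largest falls were taken in the same way, with at least 5 CPM at 18 °C. LOC101894020 (element B) was at 28.1, 13.1 and 16.1 CPM at 18 °C and at 1.92, 1.32 and 0.844 CPM at 29 °C. It fell by 3.80 on the log2 scale (SE 0.452, edgeR adjusted p 0.00212), or 13.9-fold. LOC109613277, which has no scaffold in the deposited table, fell from 15.4, 19.97 and 37.2 CPM to 1.78, 3.09 and 2.32 CPM (log2 change −3.34 ± 0.409, edgeR adjusted p 0.00219). LOC109612266, a testis-limited gene with 0 counts in CSrab heads, fell from 26.9, 33.7 and 32.4 CPM to 2.64, 5.08 and 3.88 CPM (log2 change −3.004 ± 0.396, edgeR adjusted p 0.00327). The highest 29 °C library stayed well under the lowest 18 °C library in each of the 3. On element A, 3 genes fell by a similar amount. LOC109612782 went from 27.1, 41.3 and 34.5 CPM to 4.31, 4.68 and 3.80 CPM (log2 change −3.01 ± 0.311, edgeR adjusted p 0.00122). LOC101893483 went from 5.81, 8.40 and 6.62 CPM to 1.14, 0.817 and 0.549 CPM (log2 change −3.04 ± 0.484, edgeR adjusted p 0.00624). LOC101899176 went from 7.32, 8.95 and 6.11 CPM to 1.497, 0.862 and 0.464 CPM (log2 change −2.97 ± 0.449, edgeR adjusted p 0.00574). The other large falls were LOC109613670, at 4.75 to 6.21 CPM at 18 °C against 0.463 to 0.844 CPM at 29 °C, and LOC101889855, at 4.41 to 7.43 CPM against 0.772 to 0.891 CPM, with edgeR adjusted p of 0.00501 and 0.00203.

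The best-supported falls were again taken with at least 5 CPM at 18 °C and no overlap. These 3 genes had no scaffold and were testis-limited. Below that level, LOC101895396 (element D) fell from 2.85, 2.92 and 4.14 CPM to 0.250, 0.227 and 0.295 CPM. Its log2 change was −3.66 ± 0.313, with a smaller edgeR adjusted p (0.000435) than LOC109613410 or LOC109612298. LOC109614534 was at 33.4, 33.2 and 36.0 CPM at 18 °C and at 8.23, 9.03 and 9.88 CPM at 29 °C, a log2 change of −1.92 ± 0.134 (edgeR adjusted p 0.000337). LOC109613410 fell from 21.4, 21.98 and 27.2 CPM to 5.13, 4.86 and 4.47 CPM (log2 change −2.28 ± 0.205, edgeR adjusted p 0.000514). LOC109612298 fell from 47.7, 57.3 and 63.0 CPM to 12.4, 11.7 and 14.2 CPM (log2 change −2.13 ± 0.198, edgeR adjusted p 0.000642). These 3 testis-limited genes dropped to about the same fraction of their 18 °C level in each library. Libraries of the same temperature differed little, which the choice by p-value also favours.

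**Figure D2:**
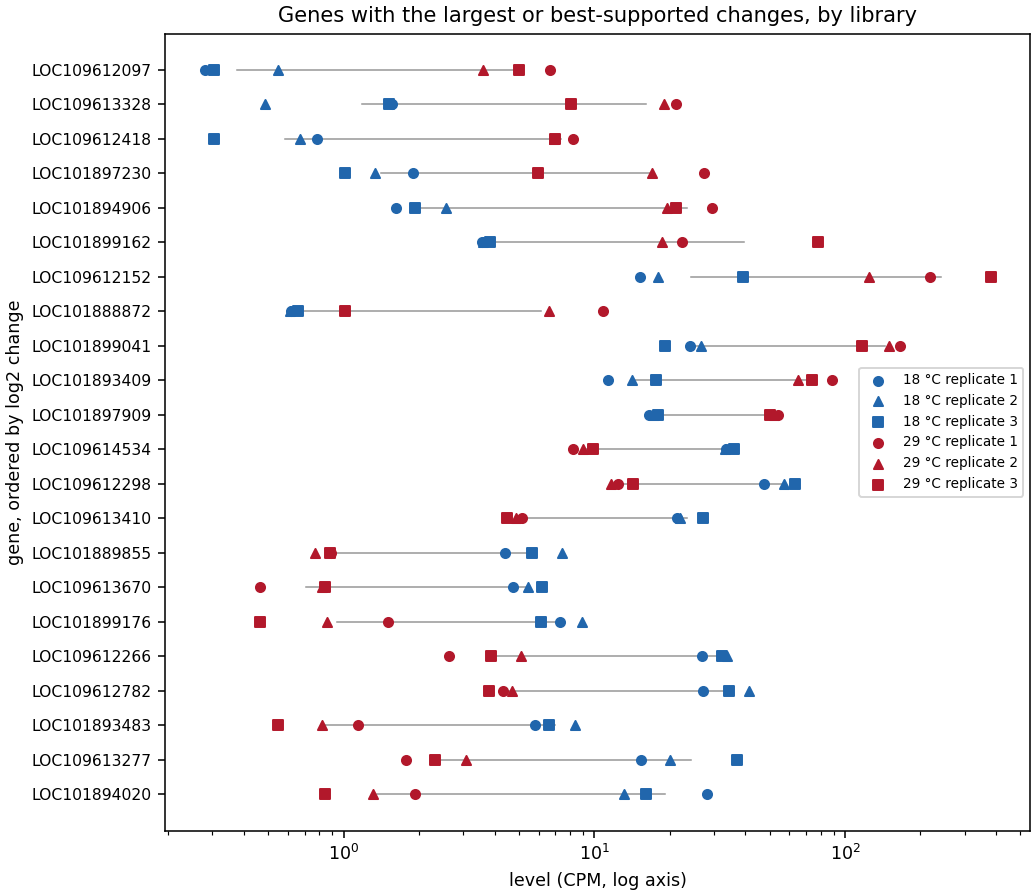
Level in CPM (x axis, log scale) of the 22 genes with the largest or best-supported changes (y axis, ordered by log2 change) in each CSrab testis library. Symbols are single libraries, blue for 18 °C and red for 29 °C, and grey lines join the group means. In every row the blue and red symbols are apart, by the rule that chose these genes. LOC101888872 has the smallest gap, with replicate 3 at 29 °C at 1.01 CPM.

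Few changes ran from near silence to expression. At most 3 counts in every 18 °C library were found in 18 called genes, and at most 3 counts in every 29 °C library in 15. The libraries were all at 0 in 2 called genes at 18 °C and in 2 at 29 °C. The largest bound among the first was LOC101898396 (element B), with 2, 0 and 1 counts at 18 °C and 21, 136 and 17 at 29 °C, at least 15.2-fold higher at 29 °C against a floor of 3 counts per library, but at least 4.38-fold without replicate 2 at 29 °C. Among the second it was LOC101896939, with 13, 19 and 72 counts at 18 °C and 0 in each 29 °C library, at least 14.9-fold lower at 29 °C, or 7.64-fold without replicate 3 at 18 °C.

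Among genes with high levels, more were called higher than lower. With a mean above 100 CPM, 76 of 1976 tested genes were higher at 29 °C (3.85%) and 36 were lower (1.82%). Over all tested genes the shares were 3.23% and 3.5%. With a mean above 1000 CPM, 7 of 92 were higher and 0 were lower. These counts by level are descriptions and were not tested. LOC101896325, a testis-limited gene on element A, was at 1576, 1635 and 1792 CPM at 18 °C and at 2384, 2491 and 2534 CPM at 29 °C, a 1.48-fold rise (log2 change 0.57 ± 0.122, edgeR adjusted p 0.0227). LOC101895746, testis-limited on element B, rose from 1005, 1022 and 1211 CPM to 1510, 1672 and 1661 CPM, a 1.496-fold rise (log2 change 0.58 ± 0.133, edgeR adjusted p 0.0293). Both were even among libraries. With the replicate block their log2 changes were 0.57 and 0.58 and neither was called (edgeR adjusted p 0.0819 and 0.0815). The call of LOC101896325 was also lost without any 1 of 4 libraries (adjusted p 0.0619 to 0.106), the exceptions being replicate 3 at 18 °C and at 29 °C, and that of LOC101895746 without any 1 of 5 (0.0618 to 0.132), the exception being replicate 3 at 18 °C. LOC109614194, which has no scaffold, rose from 729, 728 and 1042 CPM to 2777, 1896 and 4704 CPM (log2 change 1.91 ± 0.339, edgeR adjusted p 0.00984, and 0.0584 without replicate 2 at 18 °C). LOC101889691 rose from 712, 902 and 1133 CPM to 3029, 1690 and 4360 CPM (log2 change 1.72 ± 0.417, edgeR adjusted p 0.0362). Its call was lost without any 1 of the 6 libraries other than replicate 2 at 29 °C, with adjusted p of 0.0774 to 0.132.

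Among the called genes with the highest levels that fell, LOC101897835 (element B) went from 536, 541 and 648 CPM to 307, 333 and 277 CPM, a log2 change of −0.91 ± 0.155 (edgeR adjusted p 0.00837). LOC101894787 (element D) went from 397, 574 and 535 CPM to 257, 223 and 246 CPM, a log2 change of −1.05 ± 0.197 (edgeR adjusted p 0.012). Its adjusted p was 0.0602 without replicate 2 at 18 °C and 0.0615 without replicate 3. Both genes were also expressed in heads. LOC101897440 (element A) was at 338 to 349 CPM at 18 °C and 235 to 270 CPM at 29 °C, and LOC101896950 (element B) at 256 to 282 CPM and 184 to 209 CPM. These 1.36-fold falls had edgeR adjusted p of 0.0426 and 0.0384. With the replicate block they were 0.0968 and 0.0781, and neither gene was called without any 1 of the 6 libraries.

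The genes that took the most reads were not called. The 20 genes with the highest mean CPM were chosen after their values had been seen, and transcript length was not taken into account. Of them, 10 have no scaffold in the deposited table. These 10 took 3.94%, 7.19% and 13.4% of all counts in replicates 1, 2 and 3 at 18 °C, and 11.1%, 7.403% and 23.9% at 29 °C. Replicate 3 was the highest library of each group, and replicate 2 was nearly equal at the 2 temperatures. LOC101894025 was at 10307, 21131 and 40711 CPM at 18 °C and at 33053, 20654 and 81046 CPM at 29 °C, a log2 change of 0.90 (edgeR adjusted p 0.432). LOC101888455 was at 8749, 17865 and 37322 CPM at 18 °C and at 27734, 17069 and 96543 CPM at 29 °C, a log2 change of 1.14 (edgeR adjusted p 0.375). All 10 genes had positive estimates, and their means in heads were under 5 CPM. Of the 20 genes, 0 were called by edgeR, against 6.73% of all tested genes. An unadjusted p under 0.05 was found in 3 of the 20, against 22.3% of all tested genes. With these 20 genes left out of the fit, 917 genes were called.

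**Figure D3:**
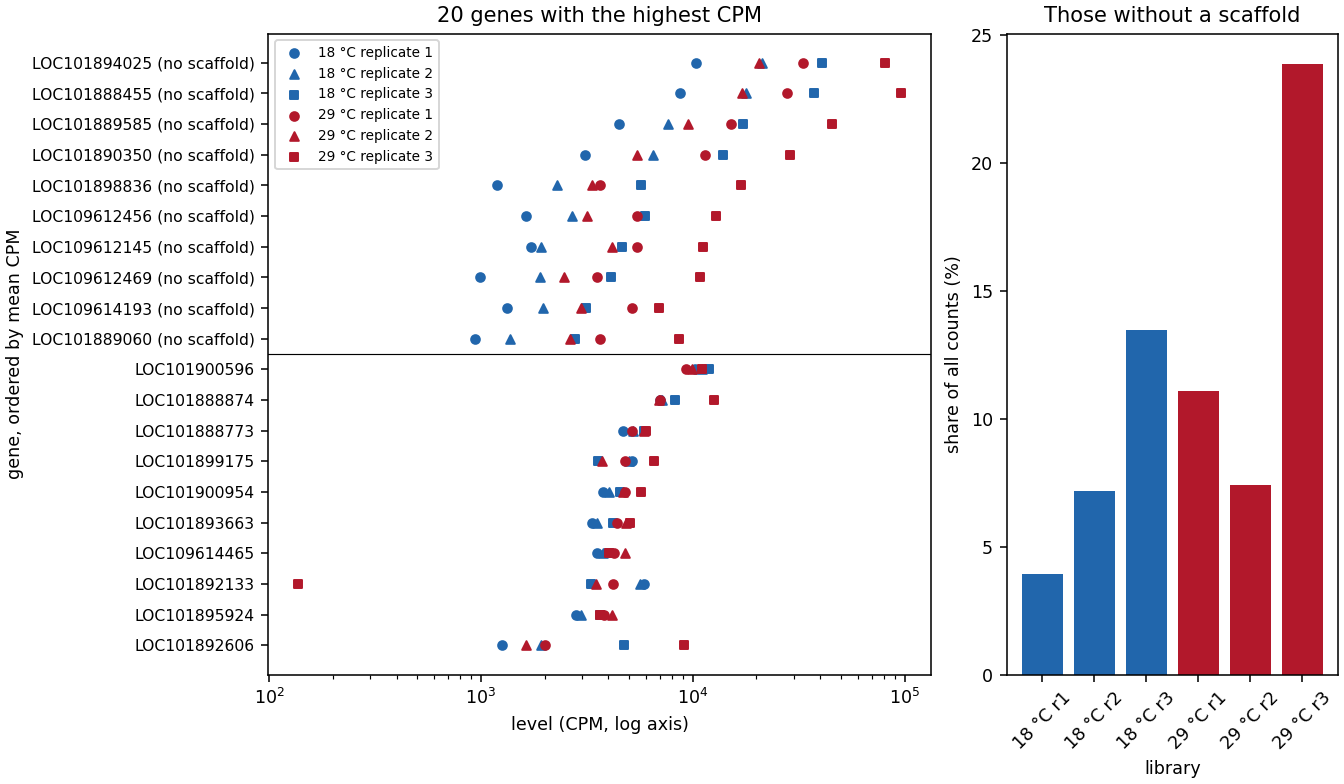
Left, level in CPM (x axis, log scale) of the 20 genes with the highest mean CPM (y axis) in each CSrab testis library, those without a scaffold above the line. Right, share of all counts (y axis, %) taken by the 10 genes without a scaffold in each library. The 10 genes vary together, with replicate 3 highest at both temperatures (13.4% and 23.9%), and most of the other 10 vary little.

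Genes with symbols were few. The deposited table gives 53 genes a symbol other than a LOC identifier (transfer RNAs left out), and 48 of these were tested. By edgeR 0 were called, against 6.73% of all tested genes, and with so few genes this says little about any family. An unadjusted p under 0.05 was found in 6 (12.5%, against 22.3% of all tested genes). The libraries of the 48 genes did not overlap between temperatures in 9 cases (18.8%, against 32.9%). Some estimates were large but imprecise, such as a log2 change of −2.35 ± 0.987 for SPN13 (edgeR adjusted p 0.19). The patterns of 27 gene lists, written mainly for product names, matched symbols in 4 lists, on heat shock proteins, cytochromes P450, immune effectors and sex determination. Symbols of 4 more list subjects were matched by hand with the values known: CCT chaperonin subunits, glutathione S-transferases, serpins and chemosensory receptors. None of these genes was called, as 0 of the 48 symbol genes were.

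For the heat shock proteins, chaperones that fly cells make in quantity when proteins unfold, 2 members were tested. hsp20, a small heat shock protein, was at 19.4, 15.6 and 26.8 CPM at 18 °C and at 47.02, 33.2 and 33.7 CPM at 29 °C. The groups did not overlap, and its log2 change was 0.88 ± 0.291 (edgeR adjusted p 0.0995). HSP70, the ATP-driven chaperone, was at 2358, 2233 and 2231 CPM at 18 °C and at 2696, 2248 and 3790 CPM at 29 °C, a log2 change of 0.36 ± 0.250 (edgeR adjusted p 0.435). Most of that difference lay in replicate 3 at 29 °C. CCT-delta, CCT-eta and CCT-zeta, subunits of the chaperonin that folds actin and tubulin, had log2 changes of −0.08 ± 0.118, −0.09 ± 0.144 and −0.16 ± 0.179 (edgeR adjusted p 0.72, 0.763 and 0.649). The other genes matched by hand were 2 glutathione S-transferases, both with positive estimates (smallest edgeR adjusted p 0.757), 4 serpins, 1 positive (0.143), and 2 chemosensory receptors, 0 positive (0.464).

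Cytochromes P450, enzymes that oxidise lipids, hormones and foreign compounds, had 7 members tested, 6 with positive estimates. The libraries did not overlap in 2 of the 7, against 32.9% of all tested genes. CYP6A24 was at 106, 16.7 and 21.7 CPM at 18 °C and at 150, 109 and 22.1 CPM at 29 °C (log2 change 0.96 ± 0.941, edgeR adjusted p 0.594). CYP6D8 was at 14.3, 5.11 and 8.89 CPM at 18 °C and at 68.7, 46.2 and 11.9 CPM at 29 °C (log2 change 2.16 ± 0.772, edgeR adjusted p 0.127). Both were higher at 29 °C in each same-numbered pair of libraries, and the groups overlapped. CYP6G4 was at 4.19, 2.25 and 7.37 CPM at 18 °C and at 20.7, 9.21 and 9.92 CPM at 29 °C, with no overlap (log2 change 1.52 ± 0.938, edgeR adjusted p 0.371). The other member without overlap was LOC101891761 (log2 change 0.84 ± 0.350, edgeR adjusted p 0.187). Among the antibacterial peptides, attacin was at 23.3, 1.28 and 0.556 CPM at 18 °C and at 15.2, 0.272 and 0.211 CPM at 29 °C, high in replicate 1 of both groups (log2 change −0.67 ± 2.13, edgeR adjusted p 0.892). diptericin was at 1.62, 1.40 and 0.404 CPM against 10.6, 0.182 and 0.127 CPM (edgeR adjusted p 0.701).

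Sxl, which in Drosophila is the master switch of female development but in the house fly is not known to set sex, was at 61.8, 57.9 and 45.8 CPM at 18 °C and at 39.7, 39.3 and 51.9 CPM at 29 °C (log2 change −0.34 ± 0.200, edgeR adjusted p 0.352). argos, whose Drosophila protein is a secreted inhibitor of EGF receptor signalling, had the smallest adjusted p of the symbol genes. It was at 3.63, 4.02 and 3.23 CPM at 18 °C and at 1.57, 1.91 and 2.15 CPM at 29 °C, with no overlap (log2 change −0.95 ± 0.288, edgeR adjusted p 0.0773). yp3, a yolk protein gene of the kind expressed in fat body, was at 11.8, 15.5 and 14.6 CPM at 18 °C and at 18.9, 23.6 and 11.9 CPM at 29 °C (edgeR adjusted p 0.765), against a mean of 401 CPM in CSrab heads at 18 °C.

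Libraries of one temperature also differed among themselves by large factors at certain genes. At 29 °C, 66 genes were at least 10-fold lower in replicate 3 than in both replicates 1 and 2, where they had at least 5 CPM, and 43 of them (65.2%) had a mean of at least 5 CPM in heads, against 79.8% of the 8974 genes with at least 5 CPM in both replicates. The count of such genes was 4 for replicate 1 and 0 for replicate 2 at 29 °C, and 0, 0 and 6 for replicates 1, 2 and 3 at 18 °C. LOC101892133, one of the 20 genes with the highest CPM, was at 5900, 5662 and 3307 CPM at 18 °C and at 4210, 3488 and 137 CPM at 29 °C. LOC101888831 was at 317, 27.5 and 30.7 CPM at 18 °C and at 231, 326 and 11.01 CPM at 29 °C. Genes at least 10-fold higher in 1 library than in both others of its group numbered 39, 2 and 24 for replicates 1, 2 and 3 at 29 °C, and 19, 0 and 14 at 18 °C. Of the 66 genes, 2 were called between temperatures, LOC101887891 and LOC105262425, and these are the 2 called genes whose libraries overlap. LOC101887891 was at 0.503, 0.913 and 0.354 CPM at 18 °C and at 52.5, 48.2 and 0.253 CPM at 29 °C. LOC105262425 was at 0.279, 0 and 0 CPM at 18 °C and at 20.5, 9.71 and 0.0422 CPM at 29 °C. What sets the replicates apart was not tested.

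Called genes were counted by where the deposited table places them. House fly chromosomes are given as elements A to F, the chromosome arms that fly genomes share. The share called was 5.05% of 1881 tested genes on element A, 5.94% of 1718 on B, 6.39% of 2191 on C, 7.17% of 1910 on D and 5.74% of 2595 on E, with 2 of 35 on F, against 6.73% over all genes. On each of A to E the numbers of higher and lower genes were close, such as 53 and 42 on A and 62 and 75 on D. Genes on scaffolds with no element had 6.78% called (1917 tested). Genes with no scaffold had 13.5% called, 51 higher and 87 lower of 1024 tested. Their median level was 2.87 CPM, against 22.8 to 24.7 CPM for genes on elements A to E. These shares are descriptions of classes chosen with the values known, and they were not tested.

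Expression in heads divided the genes further. Testis-limited genes had 13.4% called, 86 higher and 53 lower of 1038 tested. Genes with at least 5 CPM in both tissues had 5.32% called, 189 higher and 209 lower of 7477. Their median levels were close, at 35.8 and 35.4 CPM. Among testis-limited genes, 22.5% of the 227 without a scaffold were called (26 higher and 25 lower), against 10.9% of the 811 with one (60 higher and 28 lower). Among genes expressed in both tissues, 5.93% of the 118 without a scaffold were called. Above 100 CPM the genes without a scaffold had a median log2 change of 1.12 over the 55 tested, of which 7 were called higher and 0 lower. All genes without a scaffold together took 6.46%, 10.2% and 17.3% of the counts at 18 °C and 16.2%, 11.1% and 28.7% at 29 °C. The groups overlapped, with replicate 3 highest in both, and the part of single libraries in the shift was not tested. Those at 10 to 100 CPM had a median of −0.12, with 16 higher and 26 lower of 217.

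**Figure D4:**
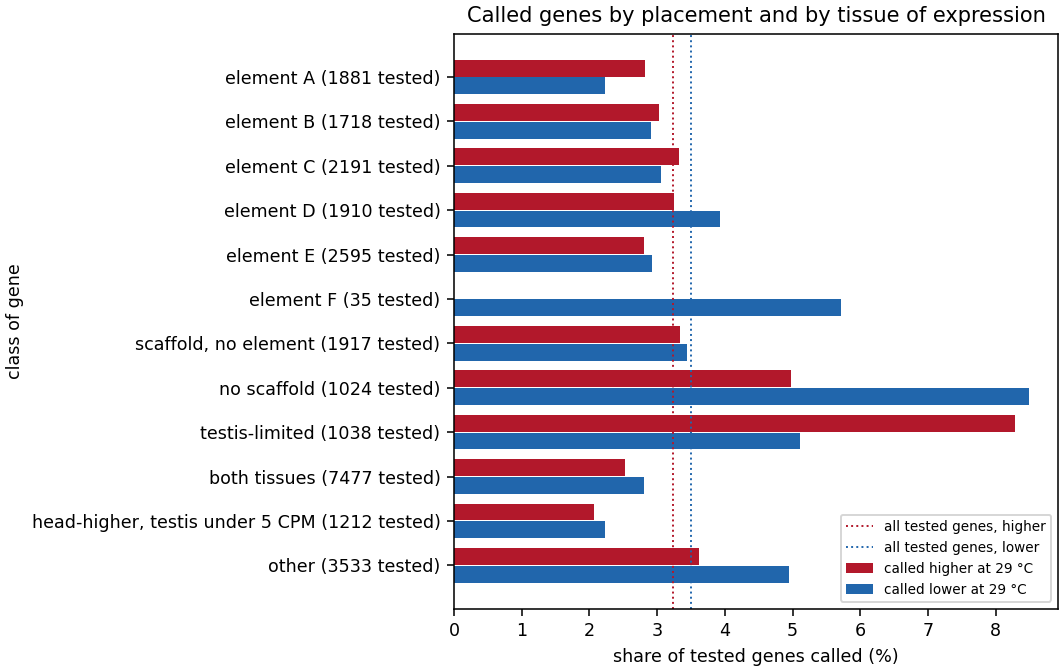
Share of tested genes called higher (red) or lower (blue) at 29 °C (x axis, %) for each class of gene (y axis): placement by chromosome element or scaffold, and tissue of expression. Dotted lines mark the shares over all tested genes, 3.23% higher and 3.5% lower. Testis-limited genes have the longest red bar and genes without a scaffold the longest blue bar.

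Some called genes shared a scaffold. Tested genes lay on 2719 scaffolds, of which 550 held a called gene and 17 held at least 4. Of the 755 called genes with a scaffold, 333 shared one with another called gene. The 17 scaffolds held 12 to 86 tested genes each. How much sharing scaffold size alone would give was not worked out, so these counts show no clustering. On 4 of the 17 scaffolds all called genes moved the same way. The one with the most called genes was an element A scaffold with 5 of 19 tested genes called, all higher. That is 26.3%, against 6.73% of all tested genes. LOC101898136 rose there from 29.2, 24.4 and 29.9 CPM to 92.9, 111 and 83.9 CPM (log2 change 1.78 ± 0.154, edgeR adjusted p 0.000435), and LOC101899681 from 5.92, 5.42 and 8.64 CPM to 39.2, 42.2 and 20.4 CPM (log2 change 2.35 ± 0.447, edgeR adjusted p 0.0132). The other 3 genes, LOC105261679, LOC105261680 and LOC109612164, had log2 changes of 1.32 to 2.00.

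On an element D scaffold 4 of 12 tested genes were called (33.3%, against 6.73% of all tested genes), all higher and all low at 18 °C. LOC101901530 was at 0.0558, 0.0609 and 0 CPM at 18 °C and at 1.53, 0.953 and 1.22 CPM at 29 °C, at least 7.39-fold higher. On an element C scaffold 4 of 14 were called higher (28.6%), with neighbouring identifiers LOC109612915 to LOC109612918. LOC109612916 rose from 12.1, 12.7 and 12.7 CPM to 22.2, 25.5 and 20.6 CPM (edgeR adjusted p 0.0438), and LOC109612917 from 3.18, 3.71 and 4.49 CPM to 14.97, 11.3 and 8.27 CPM (edgeR adjusted p 0.0134). On another element C scaffold 4 of 29 fell, among them LOC101890413, from 59.1, 59.3 and 52.3 CPM to 30.8, 23.3 and 33.9 CPM (edgeR adjusted p 0.0149). The treatment of reads that match several gene copies is not given in the sources used here, so neighbouring genes that are copies of each other may share counts. These scaffolds were picked for their called genes, and their counts are a description.

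The same genes were then read in testes of IsoCS, which share no library with CSrab testes. Both strains were fitted together, however, with a shared estimate of spread for each gene. A small shared spread favours a call in either strain, so the calls in IsoCS are not independent of those in CSrab. How much this raised the number called in both was not tested. Of the 428 genes called higher in CSrab, 394 also had a positive estimate in IsoCS, 229 were called higher there and 3 were called lower. Their median log2 change was 0.79 in IsoCS against 1.20 in CSrab. Of the 465 genes called lower, 401 had a negative estimate in IsoCS, 167 were called lower and 8 higher. Their median was −0.56 in IsoCS against −1.16 in CSrab. Over all tested genes 49.9% were positive in IsoCS testes, and 10.4% were called there. Because these genes were chosen for a large change in CSrab, a smaller median in IsoCS is no measure of a difference between the strains.

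The difference itself, the log2 change of CSrab testes less that of IsoCS testes, was called by edgeR for 33 genes (0.249%), 13 with a positive difference and 20 with a negative one, and 1337 had an unadjusted p under 0.05. Of the 33, 24 were called in CSrab testes, and 10 of these were called in both strains with opposite signs. The other 9 were called in IsoCS alone. With replicate number as a block 3 genes were called, with 1370 at an unadjusted p under 0.05, and without replicate 3 of IsoCS at 29 °C there were 123.

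LOC109612782 held under each setting run. It fell in CSrab as given above, and in IsoCS it rose from 1.58 ± 0.136 CPM (SD, n = 3) to 4.805 ± 2.21 CPM. The difference was −4.61 ± 0.433 on the log2 scale (edgeR adjusted p 0.00381, and 0.0165 with the replicate block). The strains thus differed widely at 18 °C, at 27.1 to 41.3 CPM in CSrab, and had similar levels at 29 °C. LOC101899041 held under each setting too. In IsoCS it was at 155 ± 14.7 CPM at 18 °C and 157 ± 36.7 CPM at 29 °C, levels that CSrab reached only at 29 °C, and the difference was 2.60 ± 0.279 (edgeR adjusted p 0.00861, and 0.0165 with the block).

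The largest positive difference above 5 CPM was in LOC109613297, a testis-limited gene on element A. In CSrab it was at 7.54, 6.45 and 8.33 CPM at 18 °C and at 10.4, 99.7 and 97.9 CPM at 29 °C, a log2 change of 3.22 ± 0.652 (edgeR adjusted p 0.0173). Replicate 1 at 29 °C stayed near the 18 °C level. Its CSrab call was lost with the block (2.75, edgeR adjusted p 0.0654) and without any 1 of 4 libraries, those at 18 °C or replicate 2 at 29 °C (adjusted p 0.0534 to 0.0864). In IsoCS it fell from 336 ± 77.9 CPM to 8.43 ± 1.86 CPM, and the difference was 8.54 ± 0.962 (edgeR adjusted p 0.00873, and 0.0646 with the block). LOC109613470 was at 18.0 to 21.8 CPM at 18 °C and 8.88 to 14.9 CPM at 29 °C in CSrab and was not called there (edgeR adjusted p 0.395). In IsoCS it fell from 3.03 ± 1.99 CPM to 0.00931 ± 0.0161 CPM, with a fitted difference of 6.92 ± 0.891 (edgeR adjusted p 0.0184, and 0.0646 with the block). The 3 IsoCS libraries at 29 °C held 1 count in all, so the size of this difference is not fixed by the data: it was 8.60 without replicate 1 of IsoCS at 29 °C (adjusted p 0.0583).

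Of the genes called lower in CSrab and not in IsoCS, LOC109614534 was at 21.3 ± 2.40 CPM at 18 °C and 18.0 ± 0.615 CPM at 29 °C there, with a difference of −1.68 ± 0.184 (edgeR adjusted p 0.00861, and 0.0646 with the block). LOC101893483 was low in IsoCS at both temperatures, at 0.442 ± 0.0885 CPM and 1.03 ± 0.712 CPM, with a difference of −4.27 ± 0.677 (edgeR adjusted p 0.0385, and 0.104 with the block). LOC101894787 was called in both strains with opposite signs. In IsoCS it rose from 297 ± 60.8 CPM to 487 ± 86.8 CPM (edgeR adjusted p 0.0437), with a difference of −1.77 ± 0.277 (edgeR adjusted p 0.037, and 0.145 with the block). LOC109612097, the first of the 8 largest rises in CSrab, stayed at 0.295 ± 0.0606 CPM and 0.192 ± 0.0767 CPM in IsoCS, with a difference of 4.35 ± 0.591 (edgeR adjusted p 0.0202, and 0.131 with the block). The same test did not call LOC101897909, which rose from 8.86 ± 0.783 CPM to 41.0 ± 4.62 CPM in IsoCS, nor LOC109612298, which fell from 8.54 ± 1.09 CPM to 2.20 ± 0.533 CPM there (difference −0.61 ± 0.173 and −0.18 ± 0.277, edgeR adjusted p 0.232 and 0.898). The authors' interaction test gave adjusted p of 0.0422 and 0.922, so the 2 tests part on LOC101897909.

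**Figure D5:**
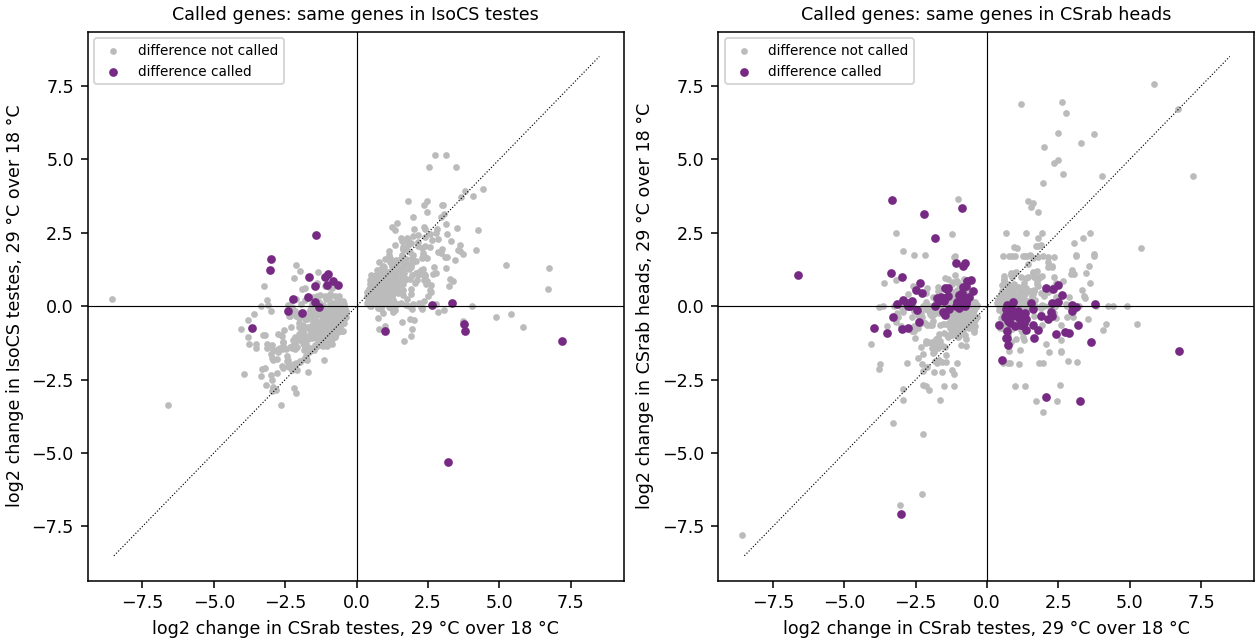
Log2 change between 29 °C and 18 °C of the 893 genes called in CSrab testes (x axes) against that of the same genes in IsoCS testes (left y axis) and CSrab heads (right y axis). Purple points are genes whose temperature effect differed by the test of the difference, and the dotted line marks equal changes. Most points fall in the quadrants of equal sign in IsoCS testes (394 of 428 and 401 of 465 genes), and fewer do so in heads (241 of 428 and 283 of 464).

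The genes were also read in heads of the same strain, where 48.3% of all genes in the joint fit had a positive estimate. Of the 428 genes called higher in testes, 241 had a positive estimate in heads and 14 were called higher there. Of the 464 genes called lower in testes that entered the joint fit of both tissues, 283 had a negative estimate in heads and 16 were called lower. The median log2 changes in heads were 0.10 and −0.14, and 1.17% of all genes were called in heads in that fit. The difference, the temperature effect in testes minus that in heads, was called by edgeR for 176 of 14334 genes (1.23%), 88 in each direction, with 1736 at an unadjusted p under 0.05. Of these, 123 were called in CSrab testes, 41 in heads, and 8 in both with opposite signs. With only the 12 CSrab libraries in the fit 21 genes were called, and without 1 library between 48 and 155.

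Several genes with large testis changes were expressed in heads without following them. LOC101889855 was at 80.4 CPM at 18 °C and 80.2 CPM at 29 °C in heads, on a common scaling of both tissues, while it fell in testes (difference −2.76 ± 0.388, edgeR adjusted p 0.00306). LOC101899041 went from 56.3 to 73.3 CPM in heads (difference 2.26 ± 0.275, edgeR adjusted p 0.000951). LOC101893409, which rose in testes, was at 17.4 ± 8.54 CPM at 18 °C and 9.11 ± 6.34 CPM at 29 °C in heads (SD, n = 3). It was not called in heads (edgeR adjusted p 0.352), and the difference was 3.35 ± 0.620 (edgeR adjusted p 0.0129). These 3 differences were called in nearly every setting run, the exception being 1 setting of 19 for LOC101893409. LOC109612782 fell further in heads than in testes, from 8.20 to 0.0508 CPM, with 5 counts in the 3 head libraries at 29 °C (difference 4.07 ± 0.722, edgeR adjusted p 0.0129). LOC109611772, testis-limited on element C, was at 37.0, 50.5 and 63.9 CPM at 18 °C and at 85.0, 86.6 and 62.8 CPM at 29 °C in testes. It was not called there (log2 change 0.63 ± 0.224, edgeR adjusted p 0.125). In heads it went from 0.676 to 0.0226 CPM, or 50 to 2 counts (difference 5.26 ± 0.724, edgeR adjusted p 0.00274). LOC101894530, at 139 to 183 CPM in the testis libraries, was not called in testes either (log2 change 0.15 ± 0.129, edgeR adjusted p 0.528). In heads it had 0 counts at 18 °C and 17 at 29 °C. Its difference had an edgeR adjusted p of 0.0246, and 0.107 with the replicate block. LOC109612418 had 6 and 3 head counts (edgeR adjusted p 0.0338, and 0.0651 with the block) and LOC109613277 had 0 and 5 (edgeR adjusted p 0.0246). The fitted sizes of such differences rest on very few head counts. LOC101894787, at 12.3 and 13.5 CPM in heads, had an adjusted p of 0.0337, and 0.0986 with the block.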

How the data were processed

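Per the labels' protocols, RNA extraction used TRIzol followed by a column, and the library kit was a stranded one for mRNA. The submitters' processing notes name HISAT2, SAMtools, HTSeq and DESeq2 without versions or roles, and the genome build is not given in the sources used here. The authors deposited raw read counts per gene and library in 1 table per tissue. Each deposited table also holds an adjusted p-value per gene for the strain-by-temperature interaction, per the file headers, which was not used for the calls. Each table lists 16540 genes, 16443 of them under a LOC identifier, and of the 14882 gene identifiers 12947 were found in a RefSeq gene table. That table gives no product names, so roles are stated only for genes with a symbol, and no sequences were at hand. The number of per-sample columns without a library was 0.

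The counts were fitted with edgeR 4.0.16, run under R 4.3.3 together with limma 3.58.1. The 12 testis libraries were fitted with 1 coefficient per group (8 residual degrees of freedom), after filterByExpr (minimum count 10, minimum total count 15) and TMM scaling. Genes were tested by quasi-likelihood F tests (glmQLFit and glmQLFTest), and p-values were adjusted by Benjamini and Hochberg's method over all genes tested, with a threshold of 0.05. The comparison with heads used a joint fit of the 24 libraries, and values for heads come from it. The standard error is the size of the log2 change divided by the square root of F. The method was tested on simulated data.

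Replicate numbers recur in each group. Same-numbered libraries of the 2 temperatures deviated together, with correlations of 0.329, 0.182 and 0.320 in CSrab testes, 0.261, 0.294 and 0.598 in IsoCS testes and 0.626, 0.316 and 0.489 in CSrab heads. The main fits did not include replicate number, so the main calls, standard errors and adjusted p ignore this pairing. A fit with replicate number as a block was run as an alternative. Its values are printed where it changed the call of a gene named by the rules below. The labels do not say what a number marks. Replicate pairs within a group differed by far more than sampling noise (chi-square per degree of freedom 29.2 to 397), so none was a repeat deposit of another.

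Members, gene lists and rules were chosen with earlier results of these data known. Genes were named from called genes with at least 5 CPM in the higher group and no overlap between the libraries: the 8 largest changes, the 4 highest levels and the 3 smallest p-values in each direction. To these were added the highest member of a list with no call, and, in either direction, the 2 largest called differences from IsoCS and from heads at 5 CPM or more. Genes on shared scaffolds, the 20 with the highest CPM, genes at the floor of 3 counts, genes with 1 library apart and further symbol genes were named after their values had been seen. The patterns of the 27 lists, written mainly for product names, matched no symbol in 23 lists, 4 of which were then matched by hand. Alternatives were DESeq2 size factors, upper-quartile scaling, the DESeq2 1.42.0 Wald test, other filters, the block, fewer libraries in the fit and each library left out. Thinning to equal depth, removal of the 20 genes with the highest CPM and counts by class were added after seeing the data.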

Additional observations from a re-analysis of the deposited data

Results flagged for a closer look

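The test of the difference in temperature effect called 33 genes between CSrab and IsoCS testes and 176 genes between CSrab testes and CSrab heads. Among the genes named above, the effect differed between the strains in LOC109612782 (edgeR adjusted p 0.00381), LOC101899041 (0.00861), LOC109614534 (0.00861), LOC109613297 (0.00873), LOC109613470 (0.0184), LOC109612097 (0.0202), LOC101894787 (0.037) and LOC101893483 (0.0385). Of these 8, LOC109612782 and LOC101899041 were called in all 21 other settings. The adjusted p of the other genes reached between 0.0646 and 0.146 in at least 1 setting. Estimates kept their sign in each setting for all 8, but the settings reuse the same counts, so this is no separate support.

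The effect differed between testes and heads in LOC101899041 (edgeR adjusted p 0.000951), LOC109611772 (0.00274), LOC101889855 (0.00306), LOC109612782 (0.0129), LOC101893409 (0.0129), LOC101894530 (0.0246), LOC109613277 (0.0246), LOC101894787 (0.0337), LOC109612418 (0.0338) and LOC101899176 (0.0469). LOC101899041, LOC109611772 and LOC101889855 were called in all 19 other settings. LOC101899176, at 14.8 CPM at 18 °C and 8.65 CPM at 29 °C in heads, was called in 6 of the 19, LOC109612418 in 8, LOC101894787 in 9, LOC101894530 in 11 and LOC109613277 in 14. LOC101893409 and LOC109612782 were called in 18. LOC109612782 and LOC101899041 differed from IsoCS testes and from CSrab heads alike, but the 2 tests share the CSrab testis libraries.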

How the results depend on the processing

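Each of the 893 genes called between temperatures in CSrab testes kept its sign in every alternative that gave it a value. The alternatives reuse the same counts, and in 891 of these genes the libraries of the 2 temperatures did not overlap. The kept sign was thus nearly fixed in advance and is no separate support. The DESeq2 Wald test called 1649 genes, 890 of the 893 among them. Leaving out 1 library gave 276 (without replicate 2 at 18 °C) to 786 genes (without replicate 3 at 29 °C), with fewer samples in the fit. The replicate block gave 744 genes, 604 of them shared. A fit of only the 6 libraries gave 1012, 703 of them shared, or 673 with the block. The share of called genes that were higher was 47.9%, but 58.5% without replicate 3 at 29 °C, 56.6% without replicate 3 at 18 °C or with no filter on low counts, and 37.9% without replicate 1 at 18 °C. Scalings shifted the median change by under 0.1 on the log2 scale. The 139 testis-limited and 138 scaffold-less called genes became 218 and 213 by the Wald test, and 51 to 128 and 60 to 126 with a library left out.

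The 33 differences from IsoCS became 247 by the Wald test, 18 with no filter, 3 with the replicate block within strain, 13 with 1 block over both strains, and 3 to 123 with a library left out. The 176 differences from heads became 372 by the Wald test, 21 in a fit of only the 12 CSrab libraries, 215 with the block, and 48 to 155 with a library left out. The causes were not tested.

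Of 31 named genes called in CSrab testes, 21 kept their call in each alternative. With the replicate block 6 lost it: LOC101888872, LOC101895746, LOC101896325, LOC101896950, LOC101897440 and LOC109613297. It changed no other call among them. attacin, not called, reversed to a log2 change of 2.53 without replicate 1 at 18 °C (adjusted p 0.675), and was −5.09 without replicate 1 at 29 °C. DESeq2 size factors and upper-quartile scaling moved LOC101897440 to adjusted p of 0.0586 and 0.0514. Totals of 14.9 to 31.7 M counts limit low genes: at 18 °C the floor of 3 counts was 0.167 CPM on average.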
